A study of Homo sapiens with 6 samples.

Results

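The CAS family of adhesion scaffolds and the proteins that bind them were examined in AN3CA, an established endometrial cancer line that expresses *PAX2*. The 10 genes were taken by symbol from the 17471 genes of the TPM table, and all 10 were listed. They are the CAS scaffolds *NEDD9*, *BCAR1*, *EFS* and *CASS4*, the adaptors *CRK* and *CRKL*, the kinases *PTK2*, *PTK2B* and *SRC*, and the exchange factor *DOCK1*. *NEDD9* was chosen by its own difference between the groups compared here, and the partners were added to it, so that values of the 10 genes are given as a description. They were part of the fit across all genes, but no p-value is given for them and their calls there are no independent evidence. Bulk RNA-seq was available for 6 libraries. In 3 of them the cells carried the empty lentiviral hairpin vector (shEV, genotype given as WT), and in 3 the same vector carried a hairpin against *PAX2* (shPAX2, genotype given as PAX2 KD). The study's text also calls this control scrambled, and the labels' empty vector was followed, so whether the contrast includes a general hairpin effect was not tested. All cells were transduced, selected with puromycin and grown in MEM with FBS. The knockdown rested on 1 hairpin, and the labels do not say whether replicates were separate cultures, so the spread between libraries may be technical. Recovered totals ran from 10730909 to 18221859 reads in shEV and were deeper in shPAX2, from 19422615 to 29405787 reads, so depth and group were partly confounded.

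CAS proteins are scaffolds without catalytic activity. At integrin adhesions the focal adhesion kinases (*PTK2*, *PTK2B*) and SRC phosphorylate the CAS substrate domain, which then binds the SH2 domain of CRK or CRKL. CRK in turn brings DOCK1, which with an ELMO protein loads RAC1 with GTP and drives membrane ruffling and cell migration. *NEDD9*, also known as HEF1 or CAS-L, additionally binds the mitotic kinase AURKA, and high *NEDD9* is known from invasive and metastatic tumors.

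*NEDD9* lies at chr6:11183531-11382581 (GRCh37, minus strand). Its annotation holds 16 transcripts that begin at widely separated starts, of which 12 begin at the far start and 3 at the near start, 149680 bases apart. The gene's TPM is a sum over transcripts, so these data do not show which start was used. The 250 bases before each start are shown because *NEDD9* was the 1 gene of the 10 past the fold threshold used below. Both were read 5′ to 3′ on the gene's strand from RefSeq (GRCh38.p14) and matched GRCh37 exactly once on that chromosome, at chr6:11382582-11382831 and chr6:11232902-11233151. Capitals mark matches to the motifs searched.
NEDD9 far start: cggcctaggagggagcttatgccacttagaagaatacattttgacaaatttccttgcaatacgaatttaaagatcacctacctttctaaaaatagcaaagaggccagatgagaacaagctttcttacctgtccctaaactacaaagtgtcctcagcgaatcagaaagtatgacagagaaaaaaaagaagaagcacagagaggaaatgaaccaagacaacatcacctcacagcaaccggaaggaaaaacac
NEDD9 near start: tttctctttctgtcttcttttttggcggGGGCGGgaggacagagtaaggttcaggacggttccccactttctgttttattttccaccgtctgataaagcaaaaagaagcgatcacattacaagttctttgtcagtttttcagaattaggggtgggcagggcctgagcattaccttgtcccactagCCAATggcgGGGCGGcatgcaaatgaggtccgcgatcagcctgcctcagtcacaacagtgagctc

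The motifs searched, on both strands, were the core of the PAX paired-domain site (GTCACGC), the AP-1 site (TGANTCA), the TEAD site (CATTCC), the CCAAT box (CCAAT) and the GC box (GGGCGG). The window of the far start was 40.4% G and C, held 4 CG dinucleotides and matched none of them. The window of the near start was 50.0% G and C, held 9 CG dinucleotides and matched a CCAAT box 65 bases before the start and GC boxes 222 and 56 bases before it. Among 35093 windows of the same length before annotated starts, 2.2% held the paired-domain core, 6.57% the AP-1 site, 11.9% the TEAD site, 32.0% the CCAAT box and 42.6% the GC box. Windows were at hand for 6 of the 10 genes, 12 in all, and none for *CASS4*, *PTK2*, *PTK2B* and *SRC*. The paired-domain core and the TEAD site were in 0 of the 12, the AP-1 site in 1 (*BCAR1*), the CCAAT box in 3 and the GC box in 8. A match is a description of these letters and says nothing of binding.

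The targeted gene was read first. *PAX2* stood at 4.03, 3.66 and 2.74 TPM in shEV and at 0.916, 0.723 and 1.17 TPM in shPAX2, from 41 to 136 reads a library. Its log2 fold change was -1.47 (SE 0.18, limma adjusted p = 0.000294). Fold changes here and below are shPAX2 minus shEV on log2(TPM + 0.5), which understates the change of low genes.

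*NEDD9* was low in shEV and among the well expressed genes of the set in shPAX2. The shEV libraries, in replicate order, held 57, 96 and 131 *NEDD9* reads, or 1.84, 1.88 and 2.51 TPM. The shPAX2 libraries held 3402, 3556 and 2602 reads, or 38.5, 45.6 and 46.1 TPM. The groups were far apart, and the lowest shPAX2 library was well above the highest shEV library. Means (± SD, n = 3 libraries) were 2.08 ± 0.377 TPM without and 43.4 ± 4.30 TPM with the hairpin, a ratio of 20.9. The log2 fold change was 4.10 (SE 0.12), the 7th highest of 13163 tested genes. More cells with *NEDD9* RNA and more of it per cell in shPAX2 cannot be told apart in bulk RNA. Removing the median of the other tested genes on its chromosome, where values were shifted upward, left 3.70. Of the annotated genes that overlap it, 3 lie on the opposite strand, and none of them was listed in the table.

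The other CAS scaffolds did not share this difference. *BCAR1* (p130Cas, chr16:75262079-75301951), the founding member of the family, stood at 14.9, 14.1 and 13.9 TPM in shEV and at 13.7, 13.7 and 11.8 TPM in shPAX2. The ranges lay side by side without overlapping, and the log2 fold change was -0.13 (SE 0.08). *EFS* (chr14:23825612-23834961), also called Sin, is a scaffold studied mainly in lymphocytes. It was the most abundant CAS transcript of the shEV cells, at 44.6, 40.3 and 43.0 TPM, and stood at 37.4, 36.4 and 33.9 TPM in shPAX2. All shPAX2 libraries were below all shEV libraries, with a log2 fold change of -0.24 (SE 0.07). *CASS4* (chr20:54987168-55035443), the fourth scaffold, had 1, 4 and 2 reads in shEV and 4, 1 and 2 reads in shPAX2. It did not pass the filter of 0.5 TPM in 3 libraries, and neither expression nor a difference could be read at this depth.

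**Figure D1:**
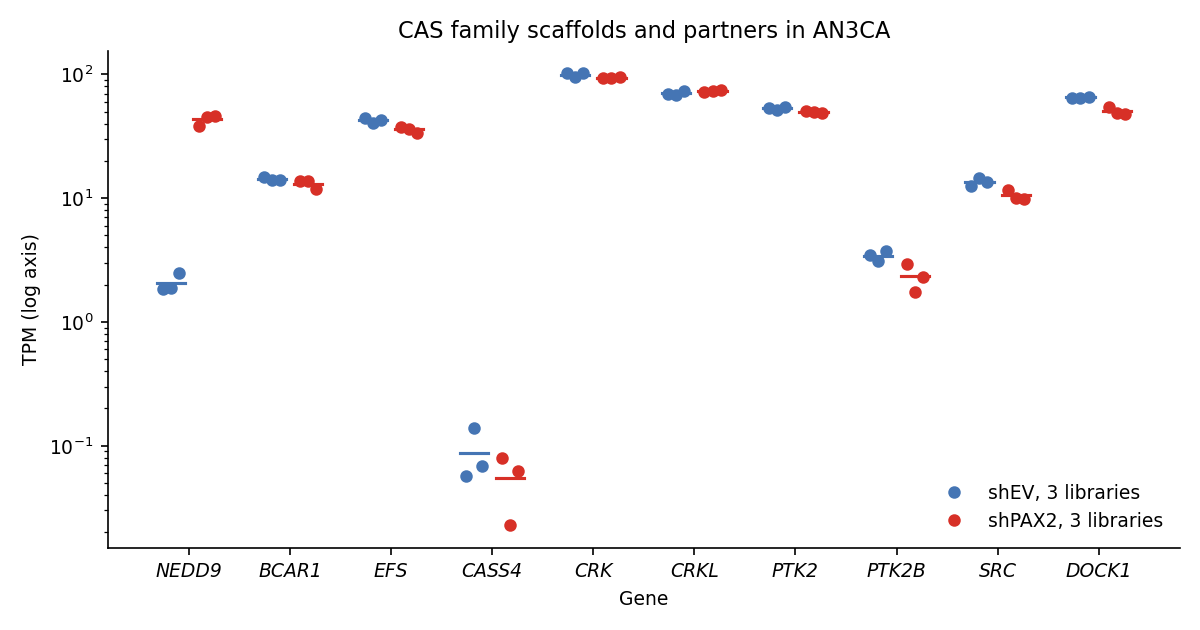
TPM of the 10 genes in each library on a log axis, with shEV libraries in blue, shPAX2 libraries in red and a bar at the group mean of 3. *NEDD9* sits at 1.84 to 2.51 TPM in shEV and at 38.5 to 46.1 TPM in shPAX2, while the other genes lie close to their shEV levels.

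As TPM is per length, the scaffolds could be summed. The 4 CAS genes together came to 61.3, 56.4 and 59.5 TPM in shEV and to 89.6, 95.8 and 91.9 TPM in shPAX2, means of 59.1 ± 2.5 and 92.5 ± 3.12 TPM (SD, n = 3 each) with a ratio of 1.56. *NEDD9* made up 3.0%, 3.33% and 4.21% of that sum in shEV and 42.9%, 47.6% and 50.2% in shPAX2. Its share thus moved from 3.51 ± 0.629% to 46.9 ± 3.70% (SD, n = 3 each). The other 3 scaffolds summed to 57.0 ± 2.49 TPM in shEV and 49.0 ± 2.88 TPM in shPAX2, and *EFS* kept a similar part of that remainder, 74.8 ± 0.792% and 73.3 ± 0.722%.

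The adaptors that read phosphorylated CAS were the most abundant genes of the set and differed little. *CRK* (chr17:1323983-1366456), which carries SH2 and SH3 domains and links CAS to DOCK1, stood at 102, 94.8 and 102 TPM in shEV and at 93.2, 93.3 and 95.7 TPM in shPAX2. Its groups overlapped, with a log2 fold change of -0.08 (SE 0.06). *CRKL* (chr22:21271695-21308035), a separate gene of the same design, stood at 70.1, 68.3 and 73.3 TPM and at 71.5, 73.6 and 74.5 TPM. These groups overlapped as well, and *CRKL* was the only gene besides *NEDD9* with an estimate above 0 on the TPM scale, 0.05 (SE 0.06). Together the adaptors summed to 170 ± 6.24 TPM in shEV and 167 ± 2.71 TPM in shPAX2 (3 libraries each, ± SD).

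Of the focal adhesion kinases, *PTK2* (FAK, chr8:141667999-142012315) is the form at integrin adhesions of most cells and *PTK2B* (PYK2, chr8:27168999-27316908) a calcium-responsive relative. *PTK2* stood at 53.1, 51.4 and 54.8 TPM in shEV and at 50.4, 49.3 and 48.7 TPM in shPAX2, a log2 fold change of -0.10 (SE 0.05), equal to the median of all tested genes. *PTK2B* was low, at 3.45, 3.11 and 3.76 TPM in shEV against 2.96, 1.76 and 2.32 TPM in shPAX2, on 89 to 218 reads a library. Its ranges did not overlap, and its log2 fold change of -0.49 (SE 0.17) was the largest in size after *NEDD9* and also the least precise of the set. *PTK2* supplied 93.9 ± 0.355% of the summed kinase pair in shEV and 95.5 ± 1.05% in shPAX2 (SD, n = 3 each).

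*SRC* (chr20:35973088-36034453), the kinase that phosphorylates the CAS substrate domain together with FAK, stood at 12.5, 14.5 and 13.4 TPM in shEV and at 11.7, 10.1 and 9.86 TPM in shPAX2. Every shPAX2 library was below every shEV library, with a log2 fold change of -0.34 (SE 0.09). *DOCK1* (DOCK180, chr10:128593978-129250781), the RAC exchange factor at the end of this chain, stood at 64.9, 65.0 and 65.8 TPM in shEV and at 55.0, 48.7 and 47.9 TPM in shPAX2. The 3 shEV libraries lay within 1 TPM of each other and above all shPAX2 libraries, with a log2 fold change of -0.37 (SE 0.07). *FAM196A*, which overlaps *DOCK1* on the opposite strand, was at most 0.0754 TPM in any library.

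As a set, 9 of the 10 genes were tested, and 1 of them, *NEDD9*, was past the threshold of a limma adjusted p under 0.05 with a log2 fold change of at least 1. Over all tested genes 4.54% were past it, 1.43% higher and 3.11% lower. At the adjusted p alone 1 gene was higher and 4 were lower (*EFS*, *PTK2B*, *SRC* and *DOCK1*), against 12.2% higher and 30.5% lower of all tested genes. The shPAX2 libraries lay wholly above shEV for 1 gene and wholly below for 6, while 2 overlapped. Of all tested genes 54.9% did not overlap and 39.0% lay below. The choice of genes used this contrast, so nothing is read from these counts. The median log2 fold change was -0.13 for the 9 genes and -0.10 for all tested genes. Median-of-ratios scaling, which moved the median of all genes to 0, left *DOCK1* lower and added *CRKL* as higher, and under it the estimate of *CRK* turned to 0.03. Quantile normalization left *EFS* and *DOCK1* lower, with the estimate of *BCAR1* at 0.05. The 4 lower genes became 2 without shEV replicate 1, 2 without shEV replicate 2, 2 without shPAX2 replicate 2 and 1 without shPAX2 replicate 3, and *DOCK1* was lower in each of these.

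**Figure D2:**
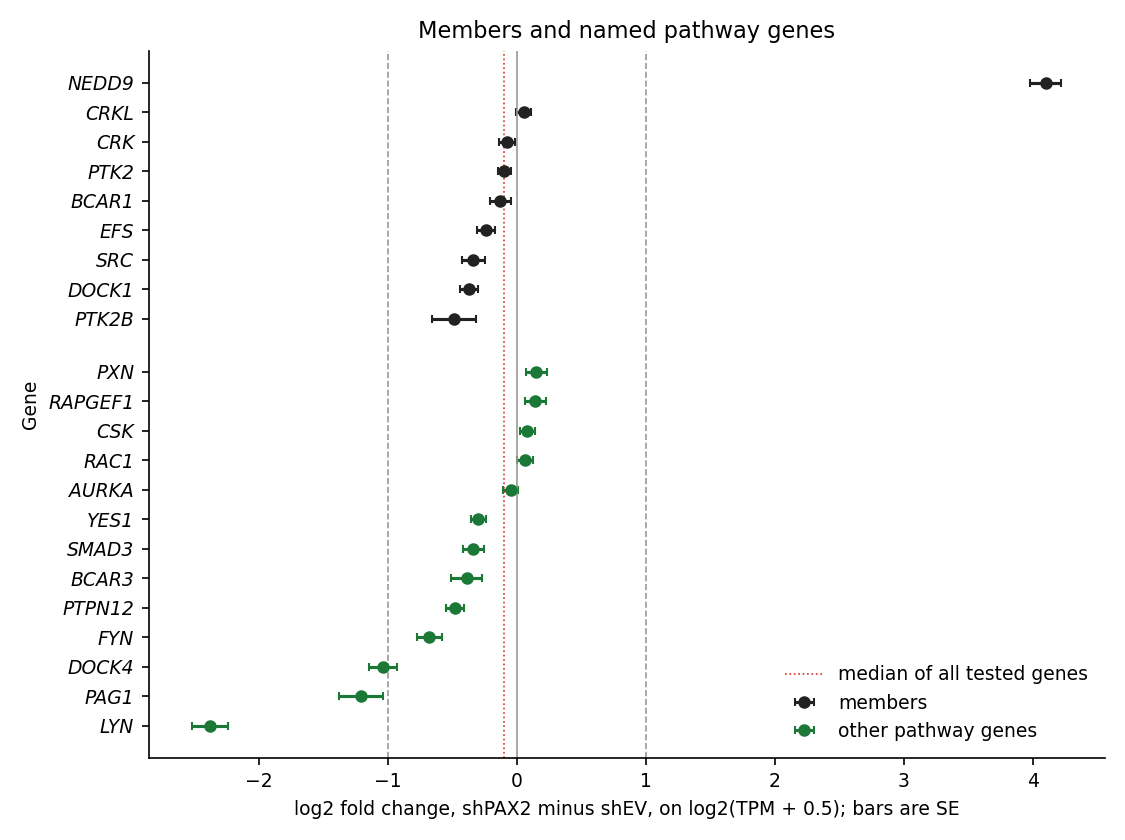
log2 fold change, shPAX2 minus shEV, of the 9 tested genes of the set (black) and of 13 named genes of the pathway (green), with bars for the SE, dashed lines at a change of 1 in either direction and a dotted line at the median of all tested genes, -0.10. *NEDD9* stands at 4.10, the rest of the set lies from -0.49 to 0.05, and *LYN* at -2.38 is the lowest gene drawn.

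The order of the levels was the same in both groups apart from *NEDD9*. In shEV it ran *CRK* (mean 99.6 TPM), *CRKL* (70.6), *DOCK1* (65.2), *PTK2* (53.1), *EFS* (42.6), *BCAR1* (14.3), *SRC* (13.5), *PTK2B* (3.44), *NEDD9* (2.08) and *CASS4* (0.088). The ranges of neighbours in this order were apart except for *BCAR1* and *SRC*. In shPAX2 *NEDD9* moved from the ninth to the fifth place, between *PTK2* (49.5 TPM) and *EFS* (35.9 TPM), with its range apart from both. There the only neighbours whose ranges overlapped were *DOCK1* (50.6 TPM) and *PTK2*. Within groups the set was tight, with a coefficient of variation of 0.781% (*DOCK1*) to 18.2% (*NEDD9*) over the tested genes in shEV and of 1.47% (*CRK*) to 25.6% (*PTK2B*) in shPAX2.

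*NEDD9* was next set among its neighbours, because the 634 tested genes of its chromosome were shifted upward, with a median of 0.39 in log2 fold change, while the 11983 tested genes elsewhere had -0.11. Of the 5 tested genes nearest on each side, 8 rose at an adjusted p under 0.05 in limma, 1 fell and none had a log2 fold change as large as 1. Their median was 0.46. Among all tested genes 12.2% were higher and 30.5% lower. The share called on chromosome 6 was not computed, so whether these neighbours differ from the rest of it was not tested. The nearest, *SMIM13*, which encodes a small membrane protein and lies 44.6 kb away, had means of 13.5 ± 0.484 and 24.2 ± 1.63 TPM (± SD, n = 3) and rose by 0.82 on the log2 scale (SE 0.07, limma adjusted p = 4.77e-05). *TMEM170B*, 155 kb away on the other side, rose by 0.94 (SE 0.10, limma adjusted p = 0.000122) on the log2 scale. *TMEM14B*, *PAK1IP1*, *HIVEP1*, *SIRT5*, *TBC1D7* and *TMEM14C* rose by 0.78, 0.55, 0.49, 0.44, 0.43 and 0.39. *C6orf52* fell by 0.57 (limma adjusted p = 0.0119), and *GFOD1* at -0.08 did not pass. *NEDD9* lay far outside the range of these neighbours, -0.57 to 0.94, and most of them were themselves above the median of other chromosomes.

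**Figure D3:**
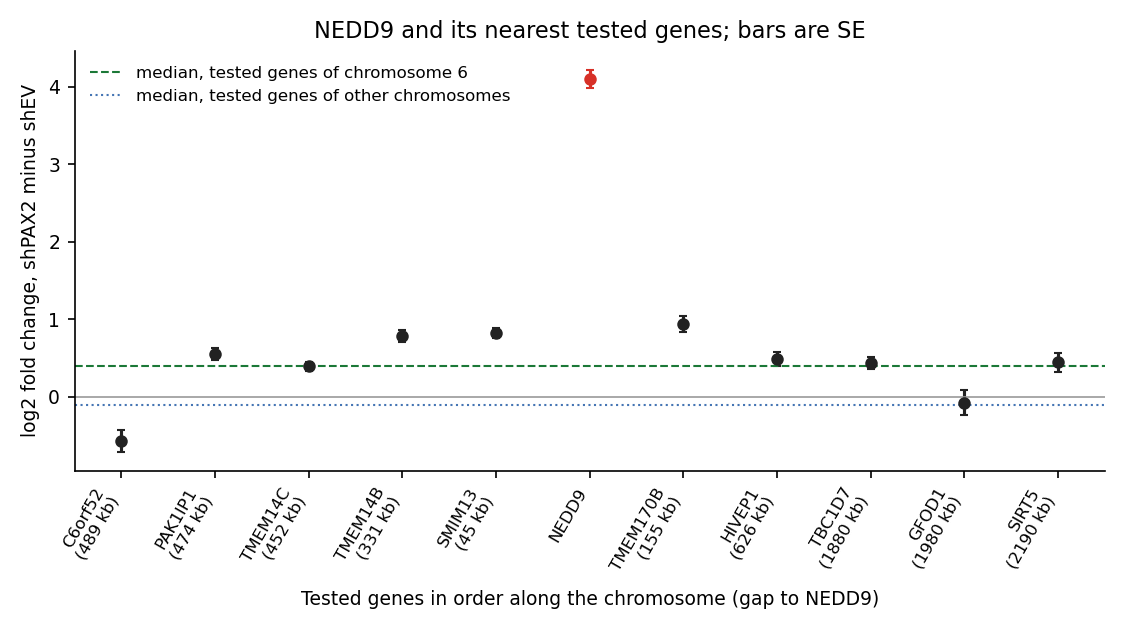
log2 fold change, shPAX2 minus shEV, with SE, of *NEDD9* (red) and the 5 nearest tested genes on each side in chromosomal order, with the gap in kb. The dashed line is the median of the tested genes of chromosome 6 (0.39) and the dotted line that of other chromosomes (-0.11), and the neighbours lie from -0.57 to 0.94 while *NEDD9* is at 4.10.

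The genes whose levels ran most like *NEDD9* over the 6 libraries were sought among 10527 tested genes with a mean of at least 5 TPM. By Pearson's r on log2(TPM + 0.5) they were *SH3RF1* (r = 0.9994), *MAPK14* (0.9994), *CITED2* (0.9993), *DUSP4* (0.9990) and *SLC35A1* (0.9989), and 107 genes had an r of at least 0.99. The 6 points fall into the 2 groups, so that r reflects a difference between groups, and libraries share depth. The size of the change differed widely among them. *CITED2*, a transcriptional coregulator, rose from 26.0 ± 4.25 to 191 ± 15.5 TPM, and *DUSP4*, a phosphatase of MAP kinases, from 11.5 ± 1.22 to 65.4 ± 1.40 TPM (SD, n = 3 each). *SH3RF1* (POSH), a scaffold of the JNK pathway that binds RAC1, rose from 28.7 ± 1.35 to 91.5 ± 4.92 TPM, whereas *MAPK14* (p38 alpha) had a ratio of 1.47 and *SLC35A1*, a sugar-nucleotide transporter, of 1.24. *MAPK14*, *CITED2* and *SLC35A1* lie on chromosome 6 as *NEDD9* does, which held 634 tested genes against 11983 on other chromosomes. Their log2 fold changes were 0.55, 2.87 and 0.30, beside a median of 0.39 on that chromosome. The part of that shift in their likeness to *NEDD9* was not tested.

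Other genes of the CAS, FAK and SRC pathway were then read from lists of 104 genes outside the set, of which 98 were in the table and 79 were tested. *VAV3*, *FGR*, *BLK*, *MATK* and *PAK3* were among those not analysed here. Past the threshold were 4 genes, or 5.06%, against 4.54% of all tested genes, with 1 higher and 3 lower, the lower ones being *DOCK4*, *LYN* and *PAG1*, of which *PAG1* passed the filter only through shEV. At the adjusted p alone 6 (7.59%) were higher and 34 (43.0%) lower, against 12.2% and 30.5% of all tested genes. The split depended on the scaling, since the same counts were 20 and 20 under median-of-ratios scaling, where 21.2% and 19.9% of all tested genes were higher and lower, and 14 and 20 under quantile normalization, with 18.0% and 18.9%.

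In the list of SRC family and ABL kinases and their regulators, 6 tested genes were expressed above the filter in both groups, of which 4 were lower and none higher at the adjusted p in limma. Among all tested genes 30.5% were lower and 12.2% higher. No gene of the list was higher at an unadjusted p under 0.05 or with voom, while under median-of-ratios scaling 3 of the 6 were lower and 1 higher, and under quantile normalization 3 were lower and 0 higher. Of all tested genes 19.9% were lower and 21.2% higher under the first scaling, and 18.9% and 18.0% under the second. *LYN* (chr8:56792394-56926728), a SRC family kinase best known from blood cells, stood at 17.4, 17.5 and 16.6 TPM in shEV and at 2.17, 3.32 and 3.35 TPM in shPAX2. Its groups were widely separated, and the log2 fold change was -2.38 (SE 0.14, limma adjusted p = 5.55e-06). *PAG1* (chr8:81880045-82024303), the membrane adaptor that brings CSK to SRC kinases, stood at 0.936, 0.864 and 0.825 TPM in shEV and at 0.0791, 0.104 and 0.105 TPM in shPAX2, from 11 to 82 reads. It passed the filter only through shEV and therefore had to differ, so it is not counted with the 6. Its log2 fold change was -1.21 (SE 0.17), and it depended on the scale, at -0.77 with a pseudocount of 1, -2.32 with a pseudocount of 0.1 and -3.14 with voom on the recovered reads. *FYN* fell by 0.68 (SE 0.10, limma adjusted p = 0.000894) and lies on chromosome 6, and *YES1*, the most abundant kinase of the family, fell by 0.30 (SE 0.06, limma adjusted p = 0.00443). *CSK*, which inactivates SRC kinases, had a log2 fold change of 0.08 (SE 0.06, limma adjusted p = 0.288). Over the alternative fits its adjusted p in limma ran from 0.0258 to 0.639.

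*SRC* itself was a minor part of its family in these cells. The 5 SRC family genes in the table (*SRC*, *YES1*, *FYN*, *LYN* and *LCK*) summed to 168 ± 6.67 TPM in shEV and 120 ± 5.93 TPM in shPAX2 (3 libraries each, ± SD), a ratio of 0.718. *SRC* made up 8.03 ± 0.689% of the sum in shEV and 8.73 ± 0.379% in shPAX2, while *YES1* made up 69.4 ± 0.817% and 78.2 ± 0.818%. *LCK* had at most 1 read in any library.

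**Figure D4:**
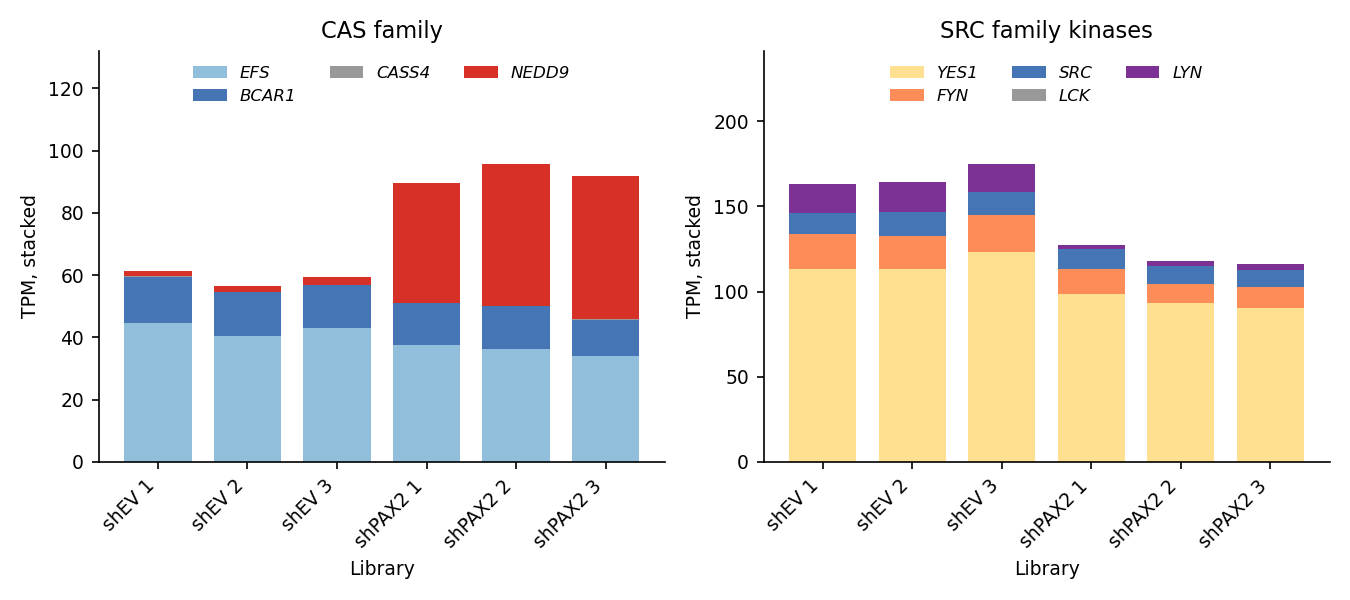
Stacked TPM of the CAS family (left) and of the SRC family kinases (right) in each of the 6 libraries, with 1 colour per gene and both axes starting at 0. The CAS sum is 56.4 to 61.3 TPM in shEV and 89.6 to 95.8 TPM in shPAX2, with *NEDD9* the segment that differs most, and the SRC family mean is 168 TPM in shEV and 120 TPM in shPAX2 (*CASS4* and *LCK* are too low to see).

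The list of the DOCK and ELMO exchange module and RAC-type GTPases reaches beyond the step after CRK. Of its 24 listed genes 16 were tested, with 1 (6.25%) past the threshold, and with 1 (6.25%) higher and 6 (37.5%) lower at the adjusted p. Of all tested genes 4.54% were past the threshold, 12.2% higher and 30.5% lower. Under median-of-ratios scaling 4 genes of the list were higher and 3 lower, against 21.2% and 19.9% of all tested genes. *DOCK4* (chr7:111366166-111846462), a DOCK1 relative, stood at 13.4, 13.5 and 14.6 TPM in shEV and at 7.63, 6.10 and 5.77 TPM in shPAX2. It fell by 1.04 (SE 0.11, limma adjusted p = 0.000113), and its log2 fold change was -0.94 under median-of-ratios scaling, -0.84 under quantile normalization and -0.97 without shPAX2 replicate 3, short of the fold threshold in each. *DOCK11*, an exchange factor for CDC42, fell by 0.95 (SE 0.10, limma adjusted p = 0.000108). The 11 DOCK genes in the table summed to 142 ± 4.53 TPM in shEV and 102 ± 6.40 TPM in shPAX2 (3 libraries each, ± SD), of which *DOCK1* made up 46.0 ± 1.12% and 49.8 ± 0.696%. *ELMO1*, a DOCK1 partner, had 1 read in 1 of the 6 libraries, whereas *ELMO2* stood at 33.4 ± 1.18 TPM in shEV and 30.6 ± 0.672 TPM in shPAX2. The GTPase *RAC1* was abundant at 153 ± 6.87 and 159 ± 1.25 TPM, with a log2 fold change of 0.06 (SE 0.06, limma adjusted p = 0.426). Over the alternative fits its adjusted p in limma ran from 0.0322 to 0.713. *TIAM2*, a RAC exchange factor on chromosome 6, rose by 0.45 (limma adjusted p = 0.0236).

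Among adaptors that bind the CAS proteins, *BCAR3* was the only NSP adaptor tested and fell by 0.39 (SE 0.12, limma adjusted p = 0.03), from 6.45 ± 0.629 to 4.83 ± 0.690 TPM (SD, n = 3 each). Over the alternative fits its adjusted p in limma ran from 0.0124 to 0.309. In the list of the CRK-bound exchange factor and RAP, none of 5 tested genes passed in limma (1 at an unadjusted p under 0.05, and 0 at the adjusted p with voom on the recovered reads), whereas 2 were higher under median-of-ratios scaling, and *RAPGEF1*, which activates RAP, had a log2 fold change of 0.14 (SE 0.08, limma adjusted p = 0.193). Over the alternative fits the adjusted p of *RAPGEF1* in limma ran from 0.0213 to 0.425. Of 4 tested tyrosine phosphatases, 2 fell (1 higher and 1 lower under median-of-ratios scaling). Among all tested genes 12.2% were higher and 30.5% lower, and 21.2% and 19.9% under median-of-ratios scaling. *PTPN12* (PTP-PEST), which dephosphorylates CAS, fell by 0.48 (SE 0.07, limma adjusted p = 0.000915), with a ratio of means of 0.709.

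Of 20 tested focal adhesion adaptors, 4 (20%) were higher and 7 (35%) lower at the adjusted p, near the shares of all tested genes (12.2% and 30.5%). Under median-of-ratios scaling 7 were higher and 4 lower, where 21.2% of all tested genes were higher and 19.9% lower. *ZYX* and *VCL*, which encode zyxin and vinculin of adhesion plaques, rose by 0.63 and 0.55 (limma adjusted p = 0.00017 and 0.000676), and *TRIP6* rose by 0.35 (limma adjusted p = 0.00533). *PXN*, which encodes paxillin, had a log2 fold change of 0.15 (SE 0.08, limma adjusted p = 0.151). Over the alternative fits its adjusted p in limma ran from 0.0125 to 0.387. Of 16 tested effectors downstream of CAS, FAK and RAC, 1 (6.25%) rose (*CTTN*, cortactin, by 0.24) and 9 (56.2%) fell. Under median-of-ratios scaling 3 of these effectors were higher and 6 lower, beside the same shares of all tested genes. *ABI2* of the WAVE complex fell by 0.72 (SE 0.06, limma adjusted p = 4.18e-05). Of 10 partners of NEDD9 in mitosis, cilium and turnover, 4 (40%) fell and none rose in limma (1 higher at an unadjusted p under 0.05, and 0 with voom). Under median-of-ratios scaling 2 of the partners were higher and 2 lower, near the shares of all tested genes. *AURKA* stood at 93.7 ± 4.34 and 90.7 ± 5.16 TPM, with a log2 fold change of -0.05 (limma adjusted p = 0.589). *SMAD3*, the TGF-beta effector, fell by 0.34 (SE 0.08, limma adjusted p = 0.011), and over the alternative fits its adjusted p in limma reached 0.29.

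The cells are labelled epithelial, and the defining epithelial markers were nearly absent. Of 13 such markers in the table, only *KRT18* and *OCLN* were tested, *CDH1*, *KRT7* and *KRT19* had at most 4 reads in any library, and the summed level was 11.4 to 13.8 TPM in shEV and 13.4 to 20 TPM in shPAX2. *OCLN*, which encodes a tight junction protein, had means of 0.393 TPM in shEV and 1.55 TPM in shPAX2, a log2 fold change of 1.17. It passed the filter only through shPAX2 and therefore had to differ. *EPCAM*, which did not pass the filter, had means of 0.289 TPM in shEV and 0.0867 TPM in shPAX2, on at most 6 reads a library. Of 12 mesenchymal markers 8 were tested, with 1 higher and 2 lower at the adjusted p, near the shares of all tested genes (12.2% and 30.5%). The list summed to 5010 to 5420 TPM in shEV and 4480 to 4660 TPM in shPAX2. Most of that sum was *VIM*, which encodes vimentin, at means of 4210 and 3810 TPM. The collagen gene *COL3A1* rose by 2.79 in log2 units (limma adjusted p = 0.000122), *COL1A2* fell by 1.11 (limma adjusted p = 1.75e-05) and *SNAI2* fell by 0.78 (limma adjusted p = 0.0366). *CDH2*, *ZEB2* and *TWIST1* had at most 7 reads in any library. The part of these markers in the values of the adhesion genes was not tested. As *EFS* and *LYN* are best known from leukocytes, their markers were read as well. *PTPRC*, which marks all leukocytes, had 1 read in 1 of the 6 libraries, and the 7 listed leukocyte markers summed to 11.2 to 12.6 TPM in shEV and 9.09 to 11.3 TPM in shPAX2, nearly all of it *CORO1A*. The 3 listed endothelial markers summed to at most 0.0611 TPM.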

How the data were processed

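Bulk RNA-seq of 6 AN3CA libraries, 3 shEV and 3 shPAX2, was used. The values are TPM (reads scaled by gene length and library total) as deposited by the authors for 17471 genes. The submitters' processing notes name STAR, featureCounts and build hg19, with no versions. The library kit was stranded, and whether counting used strand is not given in the sources used here. Ratios between libraries within a gene were ratios of whole numbers for 100.0% of genes (largest relative deviation 7.15e-14), so whole reads and totals were recovered.

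Genes with at least 0.5 TPM in at least 3 libraries (13163) were tested with limma 3.58.1 under R 4.3.3 (lmFit and eBayes, trend and robust on) after log2(TPM + 0.5), two-sided, with Benjamini-Hochberg adjustment over all of them. Genes past the threshold had an adjusted p below 0.05 together with a log2 change of 1 or more in size. The fit and the recovery were tested on simulated data. Each TPM is relative to its library's total, so abundant genes move all others, and counting error is the only error that read numbers describe.

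The genes of the set, the pathway and marker lists and the motifs were chosen with earlier results of these data known. Named were the 10 genes, *PAX2*, pathway genes past the threshold, with a fixed list of 11, the 5 tested neighbours on each side, the 5 genes with the highest r, and further pathway genes chosen after their values were seen. Some results of the pathway lists are not reported here. Positions came from GENCODE on GRCh37, for 94.7% of listed genes.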

Additional observations from a re-analysis of the deposited data

How the results depend on the processing

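With no fold threshold 5 of the 9 tested genes passed, 1 higher and 4 lower. Of all tested genes 12.2% were higher and 30.5% lower by the same rule. *NEDD9* was chosen on this contrast, so its calls under other settings are no sign of stability and its values are given as a description. Its log2 fold change was 4.33 with a pseudocount of 0.1, 3.85 with a pseudocount of 1, 4.38 with voom on the recovered reads, 3.70 after subtracting the chromosome median and 4.03 to 4.21 with 1 library left out. The difference of its share of the CAS sum between the groups was 43.4 percentage points, 41.8 to 45.4 with 1 library left out, and 52.4 on recovered reads, which are not per length. The genes past the threshold numbered 303 with a filter at 5 TPM, where fewer genes were tested, and 5629 with no fold threshold. Lower genes were 68.6% of the calls, 55.0% under quantile normalization and 61.0% to 80.0% with 1 library left out. With 1 library left out the filter still asked for 3 libraries, so genes that passed it in only that library's group were dropped. *PAG1* was dropped whenever a shEV library was left out. Higher calls numbered 189 to 198 without a shEV library and 100 to 134 without a shPAX2 library, so that range partly reflects the filter. For the 79 tested pathway genes the count was 2 with a pseudocount of 1, 40 with no fold threshold and 3 to 5 with 1 library left out. The 40 were 7.59% higher and 43.0% lower of the 79, beside the shares of all tested genes above. A reversal was looked for only in genes past the fold threshold, *NEDD9* in the set and the 4 pathway genes past it, and none reversed. The other named genes were not checked for this.

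Deviations of same-numbered libraries from their group means correlated at -0.0523, 0.0815 and 0.0014. No strong shared shift was seen, but these values cannot show whether same-numbered libraries were handled together, which the labels do not say. With the replicate number as a block, 588 genes, 4 pathway genes and *NEDD9* at 4.10 were past the threshold. For genes under about 1 TPM, such as *PAG1*, and for *CASS4*, depth limits what can be read.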
